A study of Mus musculus with 12 samples.

Results

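The Hippo pathway and the genes known as targets of its effectors YAP and TAZ were followed through cultured fibroblasts of the mouse colon. The set comprised 40 genes of the 23106 in the table, matched by symbol, and every one was found. They were picked for their place in the pathway, with earlier results of these data known. They were 7 genes of the core kinase cassette, 9 junctional and membrane regulators, 8 coactivators, TEAD factors and VGLL cofactors, and 16 target genes. Transcript levels came from reads of the 3' ends of messenger RNAs, not from reads along the whole gene.

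There were 3 groups of 4 libraries, all from C57BL/6 colon fibroblasts of mice 12 weeks old. Cells were grown in DMEM with fetal bovine serum, received no treatment, and were taken near confluency on the day after plating. The first group was labelled WT with a guide named sgScr (WT-labelled), the second Prkcz-/- with the same guide (KO-labelled), and the third Prkcz-/- with a guide against Sox2, sgSox2 (sgSox2). All groups thus carried a guide, and the latter pair shared the Prkcz-/- label. Prkcz is the gene of protein kinase C zeta, and Sox2 that of a stem cell transcription factor. By their labels, the comparisons set Prkcz-/- cells against WT cells and then add a guide against Sox2, though the reads of Prkcz given further on, taken alone, go against the label. The replicates are called biological, but separate animals, clones or cultures are not named, so p-values cover no more than the spread among these libraries.

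Hippo signalling restrains growth. The kinases MST1 and MST2 (genes Stk4 and Stk3), held by the scaffold SAV1, activate LATS1 and LATS2, which with their MOB1 partners phosphorylate YAP and its paralog TAZ (gene Wwtr1) and keep them out of the nucleus. Unphosphorylated YAP and TAZ bind TEAD factors on DNA and turn on genes such as Ctgf, Cyr61 and Ankrd1, and in fibroblasts they respond to matrix stiffness and cell spreading. Transcript levels do not report the phosphorylation that carries the signal.

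The best known element in the promoters of such genes is the TEAD motif GGAATG, which reads CATTCC on the other strand. The 250 bases before the annotated start are shown for the well-known reporter genes of the pathway Cyr61 and Ankrd1, whose transcripts went opposite ways with the Sox2 guide. Ctgf, the other usual reporter, had no entry among the promoters and could not be shown. Capitals mark the TEAD motif. The Cyr61 sequence is chr3:145649986-145650235 (minus strand), with a match whose first base is at -103 from the start, and the Ankrd1 sequence is chr19:36119845-36120094 (minus strand), with matches at -210 and -123.
Cyr61: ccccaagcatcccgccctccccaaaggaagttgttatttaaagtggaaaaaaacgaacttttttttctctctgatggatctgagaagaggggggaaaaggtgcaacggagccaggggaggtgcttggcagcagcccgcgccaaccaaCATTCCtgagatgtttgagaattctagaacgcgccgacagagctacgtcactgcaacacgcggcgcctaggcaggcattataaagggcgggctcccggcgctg
Ankrd1: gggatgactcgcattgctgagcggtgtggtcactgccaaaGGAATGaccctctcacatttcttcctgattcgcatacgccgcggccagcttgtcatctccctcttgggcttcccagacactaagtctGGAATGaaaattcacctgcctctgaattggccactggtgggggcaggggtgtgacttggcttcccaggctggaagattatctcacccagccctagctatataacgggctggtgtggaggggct
The same motif stood in the promoters of several genes of the pathway that were listed here under roles other than target. Some of them, chosen after the matches were seen, are shown as windows of 30 bases. Lats2, Mob1a, Sav1, Tead3 and Wwc2 also held the motif and are not shown. The windows are Yap1 at chr9:8004720-8004749, minus strand, Wwtr1 at chr3:57576029-57576058, minus strand, Vgll3 at chr16:65815114-65815143, plus strand, Vgll4 at chr6:114969268-114969297, minus strand, Amotl2 at chr9:102717727-102717756, plus strand, Ptpn14 at chr1:189728110-189728139, plus strand, and Ajuba at chr14:54577830-54577859, minus strand.
Yap1: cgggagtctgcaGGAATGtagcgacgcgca
Wwtr1: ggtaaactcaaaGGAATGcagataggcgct
Vgll3: cccgcctccccaCATTCCggctaccctgcc
Vgll4: cgagtggggtggGGAATGctgagaaatgcc
Amotl2: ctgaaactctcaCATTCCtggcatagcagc
Ptpn14: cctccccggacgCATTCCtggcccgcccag
Ajuba: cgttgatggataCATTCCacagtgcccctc
Sequences are RefSeq's, GRCm38.p6, written 5′ to 3′ along the gene. The starts are those of the promoter entries and can differ from the GENCODE gene starts used below. The Ankrd1 sequence and the Amotl2 and Vgll4 windows lie inside GENCODE's intervals of these genes. Of the 40 genes, 31 matched the promoter table, with 37 promoters of 300 bases, 250 before to 50 after the start. GGAATG, searched on both strands, stood in 18 of the 37 (48.6%, 16 genes), against 14.7% of all 32851 promoters of the same length. Among the genes listed as targets the motif stood in promoters of Ankrd1, Axl, Crim1 and Cyr61, and most genes with a match were listed under other roles. Each gene was given a single role, so this does not say that the others are not targets as well. Promoters of 1 gene can overlap, and the targets were picked by the field partly for TEAD control, so the share is a description without a test. The AP-1 motif TGANTCA stood in 1 of the 37 (2.70%, the promoter of F3) against 7.81% of all, and the CArG box in 0 of the 37 against 1.63%.

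Libraries held 2.67 to 5.20 M reads, and each value is a gene's reads per 10000000 reads of its library, called normalised reads below. Values per library are in the order of replicates 1 to 4. The targeted genes were read first. Prkcz was at 0 reads in each WT-labelled library, at 21.3 ± 8.03 (SD, n = 4, 32 reads) in the KO-labelled and at 34.8 ± 11.8 (54 reads) in the sgSox2 libraries, which taken alone goes against the labels. Which stretch was deleted is not given here, and a tag outside it checks nothing, so groups are named by their labels. Sox2 stood at 1.72 ± 1.995 (2 reads), 1347 ± 76.4 (1960 reads) and 0 reads in the same order of groups. sgSox2 replicate 1 stood apart, with 4.29% mitochondrial reads against 9.39 to 10.3% in the rest of its group. It was also the highest of its group for 46.4% of all tested genes, where each of the others was highest for 14.8 to 22.2%. Results that turn on this library are given without it as well.

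Other measures moved with the groups. Of 8 fibroblast markers, Lum was at 0 in every sgSox2 library. List sums were 41979 to 45830 normalised reads in the WT-labelled, 95891 to 98107 in the KO-labelled and 50959 to 57482 in the sgSox2 libraries. Single markers went both ways. Of 7 tested as below, 5 were called higher and 2 lower with the KO label (log2 changes -4.67 to 3.30). With the Sox2 guide 1 was higher and 5 lower against the KO-labelled, and 3 higher and 3 lower against the WT-labelled libraries. Over all tested genes 67.0%, 60.7% and 52.0% were called in these comparisons. Smooth muscle markers (7 genes) summed to 2039 to 2185, 24745 to 27264 and 1342 to 2121, nearly all of it Acta2. Myh11 was at 0 in all WT-labelled and sgSox2 libraries. Of 5 tested, 2 were called higher and 1 lower with the KO label (log2 changes -1.07 to 6.75). Against the KO-labelled libraries, 1 was higher and 4 lower with the Sox2 guide. Mitosis genes (10 genes) summed to 44672 to 47554, 18493 to 19656 and 37746 to 48314. Mesothelial markers (5 genes in the table) summed to 1136 to 1296, 10.2 to 16.2 and 296 to 498, mostly Msln in the WT-labelled and sgSox2 libraries, with 3 of the 5 at 0 in all WT-labelled libraries. Pericyte markers (2 genes in the table) summed to 19.5 to 46.9, 277 to 309.8 and 37.8 to 61.5, with Rgs5 at 0 in all WT-labelled libraries. Glial and neuronal markers (5 genes) summed to 182 to 296, 292 to 404 and 168 to 215, but single markers went both ways. Of 3 tested, 1 was called higher and 1 lower with the KO label (log2 changes -2.53 to 0.66). The Sox2 guide against the KO-labelled libraries also gave 1 higher and 1 lower (-1.69 to 4.50). Summed epithelial markers did not pass 59.1 in any library, immune markers 49.99 and endothelial markers 114. The nuclear RNA Malat1 took 0.422 to 0.549% of reads in the WT-labelled, 1.36 to 1.502% in the KO-labelled and 0.321 to 0.6099% in the sgSox2 libraries. In bulk libraries fewer cells of a type and less RNA per cell cannot be told apart, and the part of these measures in the results below was not tested.

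Between the KO-labelled and WT-labelled libraries, 29 of the 39 tested genes of the set were called (limma, Benjamini-Hochberg adjusted p under 0.05 over all 12676 tested genes), 17 higher and 12 lower. The background was high, since 67.0% of all tested genes were called, 37.6% higher and 29.4% lower. Read against it, 29 of 39 is not a result about these genes, and the median size of change, 0.68 on the log2 scale, was that of all genes, 0.68. The groups did not overlap for 29 genes of the set, beside 66.0% of all tested genes. Of the called genes, 7 were higher by 2-fold or more and 4 lower by as much, beside 20.7% and 13.2% of all. Between the sgSox2 and KO-labelled libraries, 29 were called, 8 higher and 21 lower, where 60.7% of all genes were called, 30.5% higher and 30.2% lower. The median log2 change of the set there was -0.44, beside -0.01 over all tested genes. Groups did not overlap for 26 genes, beside 53.6% of all, and 2 were higher by 2-fold or more and 12 lower by as much, beside 11.1% and 15.7% of all. Between the sgSox2 and WT-labelled libraries, 31 were called, 12 higher and 19 lower, beside 52.0% of all genes, 30.1% higher and 22.0% lower (57.8% of all calls were higher, but 47.0% with DESeq2), with a median log2 change of -0.24 beside 0.08. Groups did not overlap for 27 genes, beside 46.6% of all, and 2 were higher by 2-fold or more and 9 lower by as much, beside 10.7% and 8.30% of all. The comparisons share libraries, so their counts are not independent of each other.

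**Figure D1:**
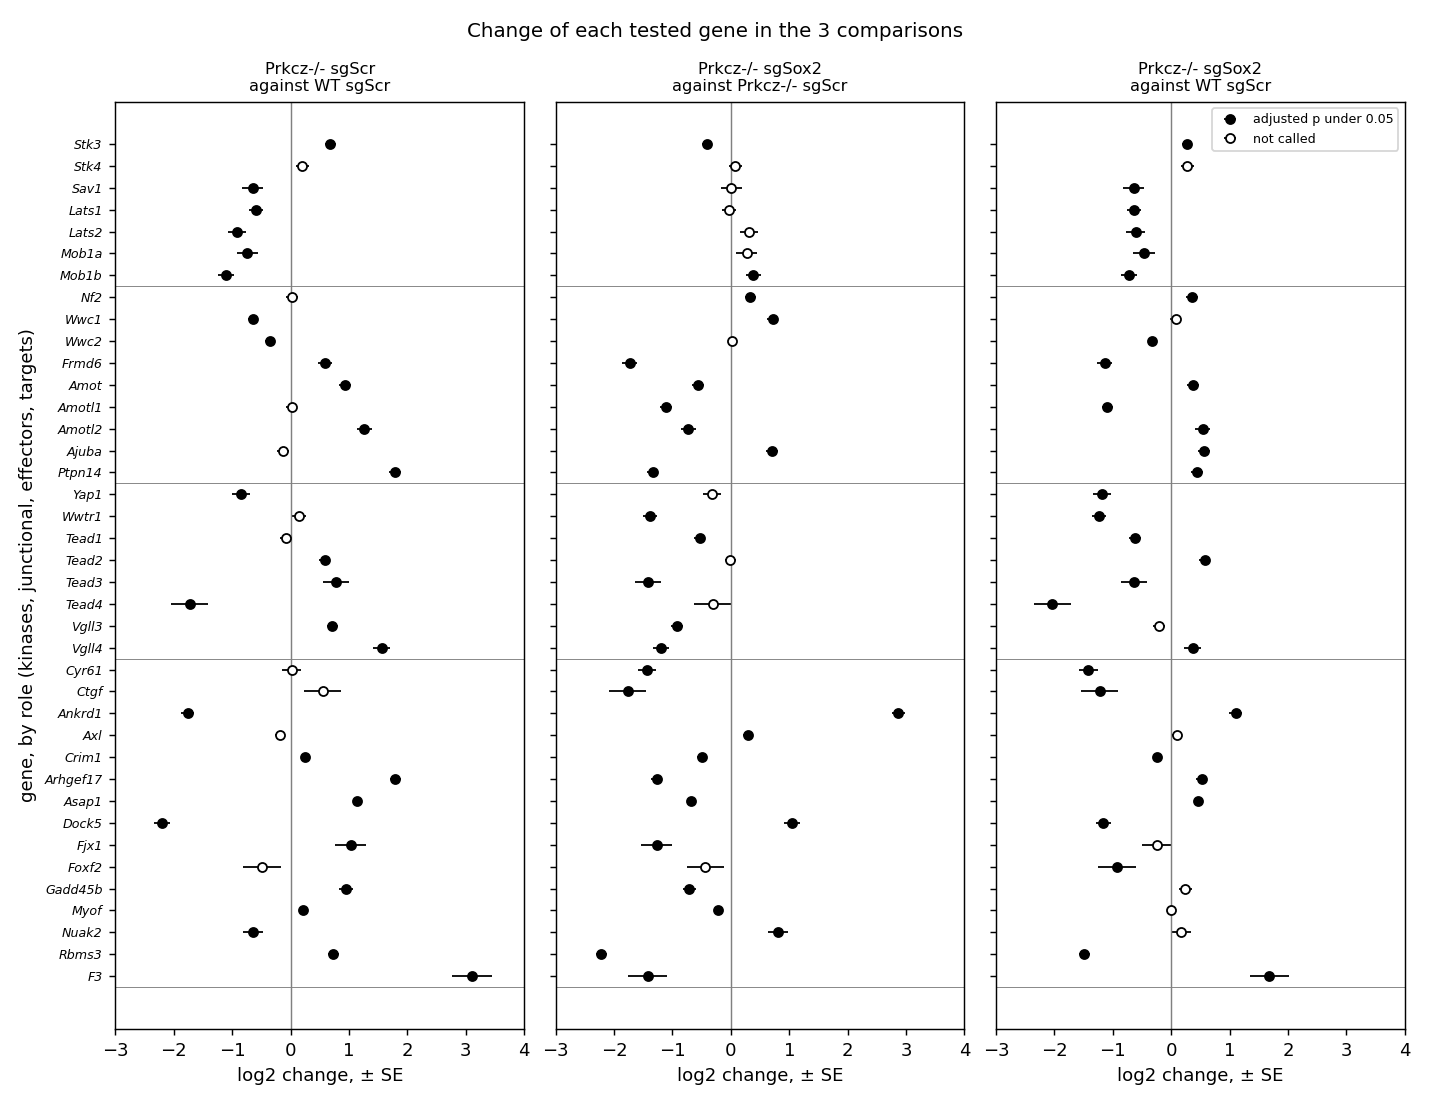
Log2 change with its SE (horizontal axis) of each of the 39 tested genes, grouped by role, in the 3 comparisons; filled points passed limma's adjusted p of 0.05. Ankrd1 lies at -1.76, 2.87 and 1.10 from left to right, and F3 at 3.11, -1.43 and 1.68.

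The core kinase cassette was lower in KO-labelled than in WT-labelled cells, with 5 of 7 genes down and 1 up beside 29.4% and 37.6% of all tested genes, each call holding under every scaling and tool tried. Lats2, a kinase of YAP and TAZ (ENSMUSG00000021959, chr14:57689662-57758388, here and below GRCm38 in GENCODE M21), stood at 1149, 1192, 1083 and 1140.1 normalised reads in the WT-labelled libraries, 750.1, 629.8, 704 and 398 in the KO-labelled and 842, 855, 671 and 647 in the sgSox2 libraries. All WT-labelled values lay above all others, and KO-labelled replicate 4 was the lowest of the 12. The fall was 1.84-fold (log2 change -0.92, SE 0.16, limma adjusted p = 7.8e-05), and Lats2 stayed below the WT-labelled level in the sgSox2 libraries (log2 change -0.61, SE 0.16, limma adjusted p = 0.0041). Between the sgSox2 and KO-labelled libraries it was not called (0.31, adjusted p = 0.1), but was without KO-labelled replicate 1 (0.41, adjusted p = 0.04). Its paralog Lats1 read 685, 798, 939.8 and 854, then 547, 507, 651 and 463, then 575, 572, 476 and 487. Here too the WT-labelled group did not overlap the others (KO-labelled against WT-labelled log2 change -0.60, SE 0.12, limma adjusted p = 0.0004), while the KO-labelled and sgSox2 groups overlapped (-0.03, adjusted p = 0.83). Summed, the LATS kinases ran from 1834 to 2023 in the WT-labelled, 861 to 1355 in the KO-labelled and 1134 to 1427 in the sgSox2 libraries.

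The MOB1 proteins, which bind and activate LATS, were likewise highest in the WT-labelled libraries. Mob1b read 701, 805, 919 and 733 in the WT-labelled, 425, 335, 363 and 343 in the KO-labelled and 540.2, 585, 389.7 and 422 in the sgSox2 libraries. Its fall in the KO-labelled libraries was 2.15-fold (log2 change -1.10, SE 0.14, limma adjusted p = 2e-06), the deepest of the cassette, and it was the 1 gene of the cassette higher in the sgSox2 than in the KO-labelled libraries (0.39, adjusted p = 0.021, with overlapping groups and no call without KO-labelled replicate 2 or sgSox2 replicate 2). Mob1a read 1347, 1499, 1538 and 1419, then 931, 796, 901 and 851, then 598, 1315, 1304 and 1181. sgSox2 replicate 1 lay far below its group. Without it, Mob1a was higher in the sgSox2 than in the KO-labelled libraries (0.54, adjusted p = 1.1e-05), against 0.27, adjusted p = 0.21 with it. Against the WT-labelled libraries Mob1a was lower (-0.47, adjusted p = 0.042, or -0.20, adjusted p = 0.038 without that library), and the call ended without any 1 of the WT-labelled libraries (adjusted p of 0.056 to 0.092). The scaffold gene Sav1 fell from 829.7 ± 59.6 (SD, n = 4) in the WT-labelled to 542 ± 133 in the KO-labelled libraries (log2 change -0.65, SE 0.18, limma adjusted p = 0.0042) and stood at 541 ± 128 in the sgSox2 libraries.

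The upstream kinases did not join this fall. Stk3 read 565, 527, 533 and 578 in the WT-labelled, 968, 901, 848 and 828 in the KO-labelled and 640.2, 659, 735 and 625 in the sgSox2 libraries, so that the groups did not overlap. It rose 1.61-fold with the KO label (log2 change 0.68, SE 0.09, limma adjusted p = 3.1e-06) and was lower again with the Sox2 guide (-0.41, adjusted p = 0.00062). Stk4, the other MST kinase, had group means of 683 ± 43.4, 789.6 ± 97.01 and 833 ± 122 (SD, n = 4) and no call in any comparison with all libraries, with adjusted p of 0.12, 0.59 and, just above the threshold, 0.05. The last difference, 0.28, was called without sgSox2 replicate 1 (0.30, adjusted p = 0.035) or replicate 2 (0.36, adjusted p = 0.012). Stk4 overlaps Tomm34 and Sav1 overlaps Atl1 on the other strand. Use of the strand in counting is not stated in the sources, so both values are uncertain to that extent.

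**Figure D2:**
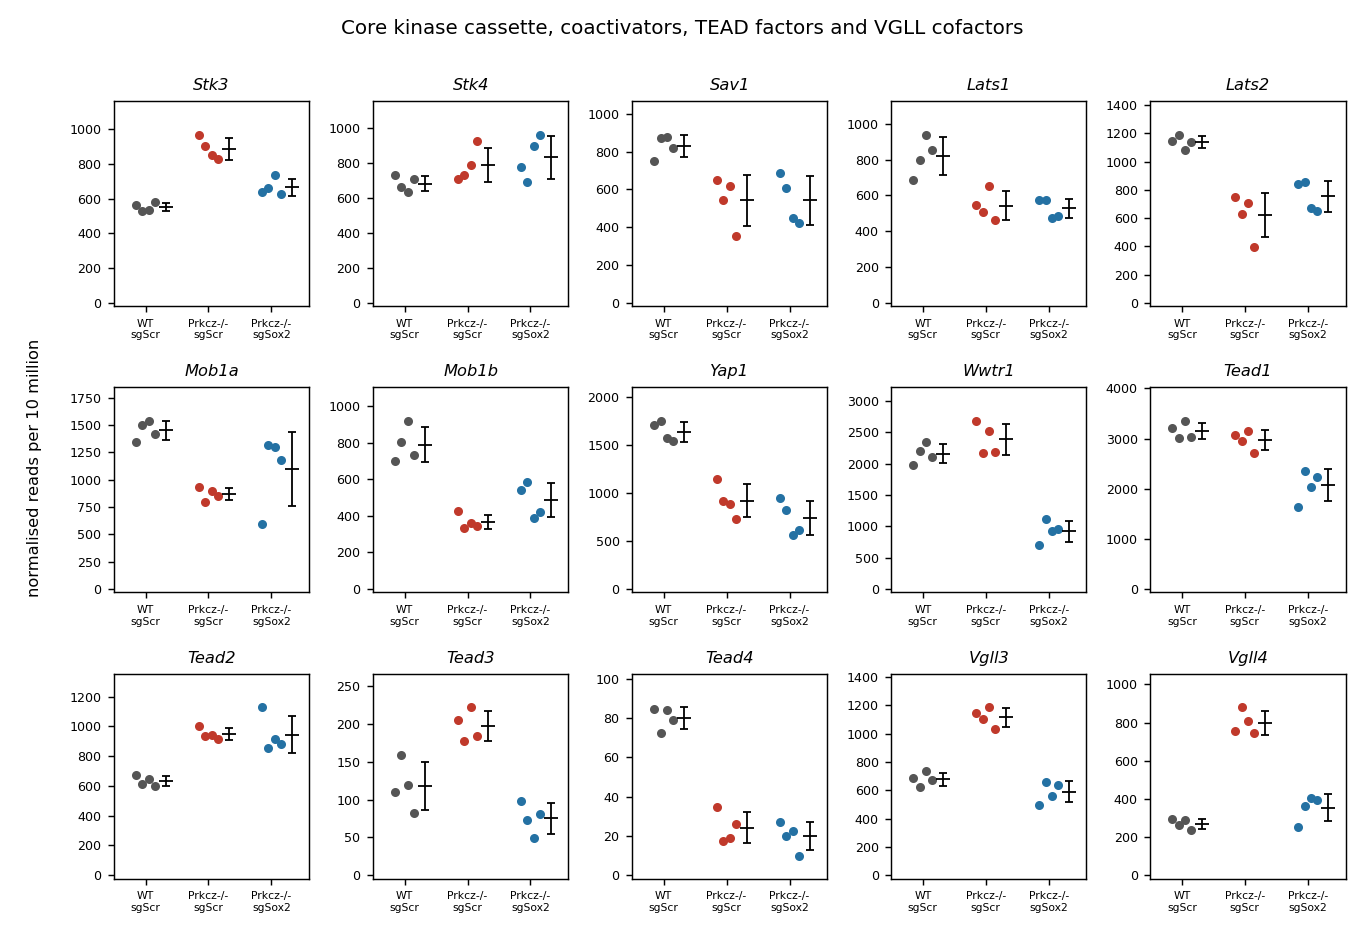
Normalised reads per 10000000 reads (vertical axes from 0) of the core kinases, coactivators, TEAD factors and VGLL cofactors in each library (points), with group mean and SD (bars, n = 4). Lats2, Mob1b and Yap1 are highest in the WT-labelled libraries, Vgll4 in the KO-labelled ones, and Wwtr1 is lowest in the sgSox2 ones, at 704 to 1113.

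Among junctional and membrane regulators, 4 of 9 were higher and 2 lower in the KO-labelled than in the WT-labelled libraries, and 3 were higher and 5 lower with the Sox2 guide than in the KO-labelled ones. The first is 66.7% called beside 67.0% of all tested genes and so no result about these regulators, and the second 88.9% beside 60.7%. Ptpn14, a tyrosine phosphatase that binds YAP (ENSMUSG00000026604, chr1:189728268-189876695), read 688, 863, 763 and 749 in the WT-labelled, 2563, 2464, 2691 and 2848 in the KO-labelled and 1055, 910.2, 993 and 1225 in the sgSox2 libraries. The 3 groups did not overlap and the KO-labelled stood highest. The rise was 3.45-fold (log2 change 1.79, SE 0.10, limma adjusted p = 1e-10), the fall with the Sox2 guide 2.53-fold (log2 change -1.34, SE 0.10, limma adjusted p = 5.7e-09), and the remaining gap to the WT-labelled libraries 0.45, adjusted p = 0.0012.

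The angiomotins, which hold YAP at junctions and actin fibres, differed among themselves. Amotl2 read 773, 693, 778 and 835, then 2114, 1828, 1893 and 1592, then 1313, 1335, 892 and 988 in the order of groups. It was highest in the KO-labelled libraries (log2 change 1.27, SE 0.13, limma adjusted p = 1.8e-07) and lower with the Sox2 guide (-0.73, adjusted p = 0.0001). Amot moved alike, from 471 ± 30.7 (SD, n = 4) to 899 ± 10.1 and 612 ± 78.9 (0.93 and -0.56 on the log2 scale, adjusted p = 2.9e-07 and 9.9e-05). Amotl1 instead read 2120.2, 1989.7, 2116 and 1945, then 2109.9, 2059, 2269 and 1848, then 792, 1104, 959 and 988. The WT-labelled and KO-labelled libraries overlapped (0.02, adjusted p = 0.88) and all sgSox2 libraries lay below them, 2.13-fold under the WT-labelled mean (log2 change -1.10, SE 0.10, limma adjusted p = 9.9e-08).

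Frmd6, a FERM-domain protein upstream of the kinases, read 948, 914, 889 and 919.9 in the WT-labelled, 1506, 1338, 1296 and 1401 in the KO-labelled and 298, 436, 495 and 464 in the sgSox2 libraries. It was the regulator of this group with the deepest fall under the Sox2 guide, 3.27-fold from the KO-labelled level (log2 change -1.73, SE 0.13, limma adjusted p = 5.2e-09) and 2.17-fold from the WT-labelled level. Ajuba, a LIM protein that inhibits LATS, ran from 664 to 815 and 627 to 725 to 908 to 1211 and was higher with the Sox2 guide than in either other group (0.70, adjusted p = 1.6e-05 and 0.57, adjusted p = 0.0002). Wwc1, which encodes KIBRA, an activator of the kinases, was lowest in the KO-labelled libraries, with means of 768 ± 33.9, 493 ± 38.1 and 809 ± 56.3 (SD, n = 4, -0.64, adjusted p = 7.4e-06 and 0.71, adjusted p = 2.8e-06). Its paralog Wwc2 was lower than WT-labelled in both the KO-labelled (-0.35, adjusted p = 0.00087) and the sgSox2 libraries (-0.33, adjusted p = 0.0024). Nf2, the gene of merlin, a tumour suppressor that recruits LATS to the membrane, had means of 704 ± 59.1, 715 ± 49.8 and 901 ± 89.8, with calls for the Sox2 guide (0.33, adjusted p = 0.0072 and 0.36, adjusted p = 0.0056).

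**Figure D3:**
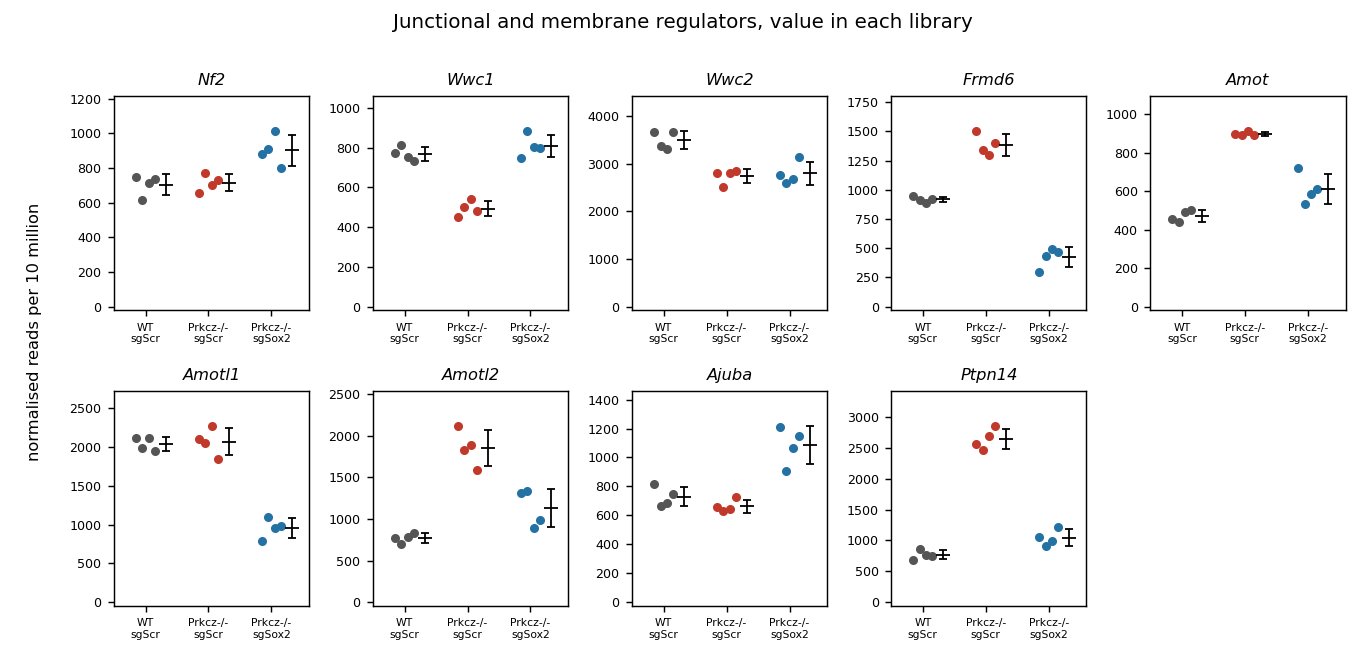
Normalised reads per 10000000 reads (vertical axes from 0) of the 9 junctional and membrane regulators in each library (points), with group mean and SD (bars, n = 4). Frmd6 and Amotl1 are lowest in the sgSox2 libraries, at 298 to 495 and 792 to 1104, and Ptpn14 is highest in the KO-labelled ones, at 2464 to 2848.

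The genes of the coactivators themselves fell at different points. Yap1 (ENSMUSG00000053110, chr9:7931999-8004596) read 1701, 1748, 1565 and 1534 normalised reads in the WT-labelled, 1140.3, 918, 883 and 725 in the KO-labelled and 946, 823, 562 and 617 in the sgSox2 libraries. All WT-labelled values lay above all others, 1.79-fold above the KO-labelled mean (log2 change -0.85, SE 0.15, limma adjusted p = 0.00011). The KO-labelled and sgSox2 libraries overlapped, and the difference was not called (-0.33, adjusted p = 0.074). It was called without KO-labelled replicate 4 (-0.43, adjusted p = 0.023) or without sgSox2 replicate 1 (-0.46, adjusted p = 0.0083). Calls also came from edgeR (-0.36, adjusted p = 0.022) and DESeq2 on the recovered reads (-0.34, adjusted p = 0.041), and under quantile scaling (-0.38, adjusted p = 0.03). Wwtr1, the gene of TAZ (ENSMUSG00000027803, chr3:57455649-57575910), read 1984, 2209.95, 2349 and 2106, then 2683, 2169, 2516 and 2194, then 704, 1113, 926 and 958. The first 2 groups overlapped (0.14, adjusted p = 0.3), and the sgSox2 libraries were 2.58-fold below the KO-labelled (log2 change -1.38, SE 0.12, limma adjusted p = 3.9e-08). Yap1 and Wwtr1 summed to 3640.3 to 3958 in the WT-labelled, 2919 to 3824 in the KO-labelled and 1488 to 1936 in the sgSox2 libraries, so the sum was lowest with the Sox2 guide and the first 2 groups overlapped.

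The TEAD genes encode the DNA-binding partners, and each had its own pattern. Tead1 read 3214, 3008, 3352 and 3036, then 3065, 2948, 3161 and 2715, then 1630.3, 2361, 2042 and 2230.2. Its level was lower in all sgSox2 libraries than in the others (-0.54, adjusted p = 0.00022 and -0.62, adjusted p = 7.3e-05), with no call between the others (-0.09, adjusted p = 0.46). Tead2 was higher in both Prkcz-/- groups than in the WT-labelled, at 632 ± 34.8, 948 ± 37.1 and 945 ± 126 (SD, n = 4, 0.59, adjusted p = 3.7e-05 and 0.57, adjusted p = 8.6e-05). Tead3 rose with the KO label (0.77, adjusted p = 0.0061) and fell with the Sox2 guide (-1.41, adjusted p = 4.3e-05), at 118 ± 31.7, 197 ± 20.2 and 75.4 ± 20.5. Tead4 read 84.4, 72.2, 83.8 and 78.9, then 34.6, 17.5, 18.8 and 25.9, then 26.9, 20.03, 22.5 and 9.88. These are few reads, 98, 37 and 33 over the 4 libraries of each group, and the WT-labelled values lay above all others (log2 change -1.73, SE 0.32, limma adjusted p = 0.00015).

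Of the VGLL cofactors, Vgll4, which competes with YAP for TEAD, read 292, 264, 290.3 and 237 in the WT-labelled, 756, 881, 807 and 748 in the KO-labelled and 252, 365, 405 and 393 in the sgSox2 libraries. It rose 2.95-fold with the KO label (log2 change 1.56, SE 0.14, limma adjusted p = 4.3e-08) and was 2.26-fold lower with the Sox2 guide (-1.19, adjusted p = 1.4e-06). The remaining difference from the WT-labelled libraries was called with overlapping groups (0.37, adjusted p = 0.036). The call ended under TMM (0.27, adjusted p = 0.12) and quantile scaling (adjusted p = 0.2), and with edgeR (adjusted p = 0.15) and DESeq2 (adjusted p = 0.23). It also ended without the filter on low values (adjusted p = 0.088) and with these 2 groups alone (adjusted p = 0.084). The same held without WT-labelled replicate 2 or 4 or sgSox2 replicate 2, 3 or 4 (adjusted p of 0.072 to 0.11). Vgll3, another TEAD partner, was also highest in the KO-labelled libraries, at 679 ± 45.97, 1116 ± 65.8 and 589 ± 73.5 (SD, n = 4, 0.72, adjusted p = 7.4e-06 and -0.93, adjusted p = 5.2e-07). Unlike Vgll4 it had its lowest mean with the Sox2 guide, a difference from the WT-labelled libraries (-0.21, adjusted p = 0.084) that was called under TMM (-0.30, adjusted p = 0.019) and quantile scaling, by edgeR and DESeq2, and without sgSox2 replicate 2. Over the 8 genes of coactivators, TEAD factors and cofactors, 4 were called higher and 2 lower between the KO-labelled and WT-labelled libraries, and 0 higher and 5 lower between the sgSox2 and KO-labelled ones, beside 37.6%, 29.4%, 30.5% and 30.2% of all tested genes.

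The target genes did not move as a block. Of 15 tested targets, 8 were higher and 3 lower in the KO-labelled than in the WT-labelled libraries, and 4 were higher and 10 lower with the Sox2 guide than in the KO-labelled ones, which is 73.3% and 93.3% called beside 67.0% and 60.7% of all tested genes. The usual reporters of YAP and TAZ went apart. Ankrd1, a nuclear ankyrin-repeat protein induced in stretched muscle (ENSMUSG00000024803, chr19:36111961-36120099), read 4143, 3961, 4403 and 4426 in the WT-labelled, 1443, 1329.6, 1261 and 990.2 in the KO-labelled and 8775, 10636, 8346 and 8748 in the sgSox2 libraries. The 3 groups did not overlap. It fell 3.37-fold with the KO label (log2 change -1.76, SE 0.11, limma adjusted p = 3.5e-10), and with the Sox2 guide it was 7.27-fold above the KO-labelled (log2 change 2.87, SE 0.11, limma adjusted p = 1.3e-12) and 2.16-fold above the WT-labelled mean (log2 change 1.10, SE 0.11, limma adjusted p = 2.9e-07).

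Cyr61 (also Ccn1), a secreted matricellular protein (ENSMUSG00000028195, chr3:145646976-145649981), read 364, 610.3, 640.5 and 463, then 549, 548, 523 and 440.1, then 186, 209, 202 and 161 in the order of groups. The WT-labelled and KO-labelled libraries overlapped (0.02, adjusted p = 0.93), and every sgSox2 library lay below them, 2.72-fold under the KO-labelled mean (log2 change -1.44, SE 0.16, limma adjusted p = 8.6e-07). Ctgf (also Ccn2), of the same family and a marker of fibrosis (ENSMUSG00000019997, chr10:24595442-24598683), read 149, 299.7, 425 and 266, then 516, 443, 469 and 217, then 88.4, 178, 127 and 83.97. Its libraries spread widely within groups. It was lower with the Sox2 guide than in either other group (log2 change -1.77, SE 0.32, limma adjusted p = 0.00014 against the KO-labelled, -1.22, adjusted p = 0.004 against the WT-labelled). Between the KO-labelled and WT-labelled libraries it was not called (0.55, adjusted p = 0.14), but was without KO-labelled replicate 4 (0.83, adjusted p = 0.021) or WT-labelled replicate 3 (0.77, adjusted p = 0.047). The Cyr61 promoter and the Ankrd1 promoter printed above both hold TEAD motifs, while their transcripts moved in opposite directions with the Sox2 guide.

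F3, the gene of tissue factor, which starts blood clotting, had the largest change of the set (ENSMUSG00000028128, chr3:121723537-121735048). It read 35.7, 75.8, 95.8 and 42.7 in the WT-labelled, 604, 580.3, 617 and 301 in the KO-labelled and 144, 329, 214 and 121 in the sgSox2 libraries, where KO-labelled replicate 4 lay below sgSox2 replicate 2. The rise with the KO label was 8.405-fold (log2 change 3.11, SE 0.34, limma adjusted p = 4.8e-07), and F3 stayed 3.23-fold above the WT-labelled mean with the Sox2 guide (log2 change 1.68, SE 0.34, limma adjusted p = 0.00055). Arhgef17 read 334, 307, 317 and 319, then 1114, 1058, 1098 and 1162, then 527, 447, 397 and 477. Its groups did not overlap, and the KO-labelled libraries stood 3.47-fold above the WT-labelled (log2 change 1.79, SE 0.10, limma adjusted p = 7.5e-11). Asap1, which turns off Arf GTPases, followed the same order at higher read numbers, 2292, 2369, 2385 and 2293, then 5199.7, 4896, 5351 and 5233, then 3161, 3358, 3133 and 3268 (1.15, adjusted p = 1.5e-10 and -0.68, adjusted p = 1.4e-07).

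Rbms3, an RNA-binding protein, had the deepest fall of the set with the Sox2 guide (ENSMUSG00000039607, chr9:116572746-117629913). It read 731, 805, 730.3 and 821 in the WT-labelled, 1339.6, 1306, 1339 and 1136 in the KO-labelled and 248, 298, 269.8 and 282 in the sgSox2 libraries, 4.67-fold below the KO-labelled (log2 change -2.22, SE 0.09, limma adjusted p = 6.1e-12) and 2.81-fold below the WT-labelled mean. Rbms3 overlaps Gm17396, and Crim1 overlaps Fez2, on the other strand, so their values are uncertain as for Stk4 and Sav1. Dock5, an activator of Rac, went the other way. It read 445, 448, 428 and 424, then 104, 111, 87.6 and 77.7, then 173, 211, 199 and 198, a 4.59-fold fall with the KO label (log2 change -2.20, SE 0.14, limma adjusted p = 4.4e-10) and a rise with the Sox2 guide (1.04, adjusted p = 5.2e-06) to a level still under the WT-labelled one. Nuak2, a kinase of the AMPK family that feeds back on YAP, was likewise lowest in the KO-labelled libraries, at 115 ± 11.8, 73.2 ± 8.25 and 129 ± 14.5 (SD, n = 4, -0.64, adjusted p = 0.0028 and 0.81, adjusted p = 0.00053).

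Gadd45b, a stress-response gene, and Fjx1, a secreted relative of the fly four-jointed protein, were highest in the KO-labelled libraries. Gadd45b had means of 496 ± 58.6, 954 ± 56.3 and 586 ± 81.6 (SD, n = 4, 0.95, adjusted p = 1.4e-06 and -0.71, adjusted p = 4.2e-05). Between the sgSox2 and WT-labelled libraries it was not called (0.24, adjusted p = 0.086), but was without sgSox2 replicate 1 (0.30, adjusted p = 0.028). Fjx1 read 110.4, 144, 71.8 and 82.1, then 268, 227, 235 and 116, then 102, 66.8, 86.2 and 81.5, with KO-labelled replicate 4 inside the WT-labelled range (log2 change 1.03, SE 0.26, limma adjusted p = 0.0024). Crim1, a membrane protein that binds growth factors, and Myof, a protein of membrane repair, were called higher with the KO label (0.25, adjusted p = 0.0079 and 0.22, adjusted p = 0.017). Both calls ended under TMM scaling (0.14, adjusted p = 0.13, and 0.11, adjusted p = 0.24) and with DESeq2 (0.17, adjusted p = 0.12, and 0.13, adjusted p = 0.25). That of Myof also ended with edgeR (0.17, adjusted p = 0.11). With the Sox2 guide Crim1 was lower than in the KO-labelled libraries, without overlap and under every alternative (-0.50, adjusted p = 3.3e-05), and lower than in the WT-labelled ones (-0.24, adjusted p = 0.015, but adjusted p = 0.051 without WT-labelled replicate 3). Myof was lower than in the KO-labelled libraries (-0.21, adjusted p = 0.019, but adjusted p = 0.051 without KO-labelled replicate 3). The receptor tyrosine kinase Axl had means of 4809.6 ± 68.7, 4245 ± 352 and 5197 ± 555 and was called higher in the sgSox2 than in the KO-labelled libraries (0.29, adjusted p = 0.0068), with overlapping groups and no call under quantile scaling (0.15, adjusted p = 0.093). Between the KO-labelled and WT-labelled libraries Axl was not called (-0.18, adjusted p = 0.063), but was called lower under TMM scaling (-0.29, adjusted p = 0.0042), by edgeR (adjusted p = 0.022) and DESeq2 (adjusted p = 0.0034), with these 2 groups alone (adjusted p = 0.01) and without KO-labelled replicate 4 (adjusted p = 0.022). The forkhead gene Foxf2, of the gut mesenchyme, was called lower with the Sox2 guide than in the WT-labelled libraries (-0.93, adjusted p = 0.022), but not without sgSox2 replicate 3 (-0.55, adjusted p = 0.071) or WT-labelled replicate 3 (-0.87, adjusted p = 0.056). Nt5e, the gene of the ecto-enzyme CD73, had 3, 18 and 2 reads over the 4 libraries of each group and was not tested.

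**Figure D4:**
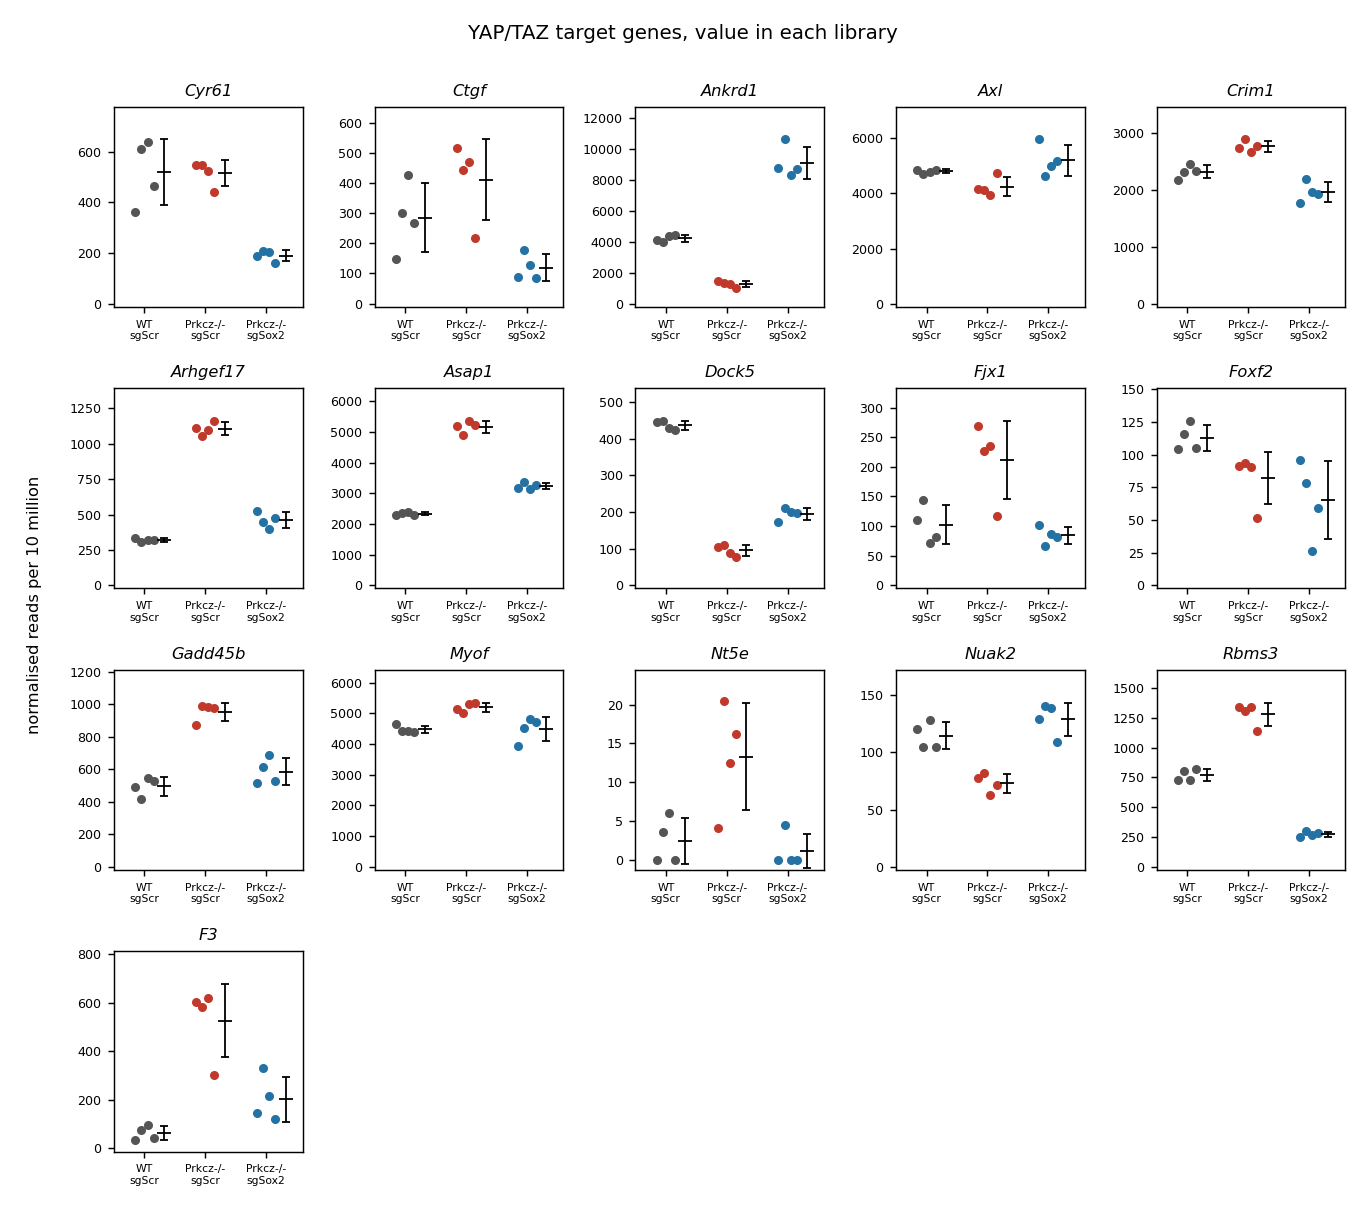
Normalised reads per 10000000 reads (vertical axes from 0) of the 16 target genes in each library (points), with group mean and SD (bars, n = 4). Ankrd1 is lowest in the KO-labelled libraries (990.2 to 1443) and highest in the sgSox2 ones (8346 to 10636), while Cyr61 and Rbms3 are lowest in the sgSox2 ones (161 to 209 and 248 to 298).

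The log2 ratio within each of 10 pairs of paralogs was compared between groups. The log2 ratio of Yap1 to Wwtr1 averaged -0.40 ± 0.16 (SD, n = 4) over the WT-labelled, -1.39 ± 0.19 over the KO-labelled and -0.34 ± 0.52 in the sgSox2 libraries. Tead3 to Tead4 went from 0.52 ± 0.45 to 3.02 ± 0.44 and 1.91 ± 0.76, Amotl1 to Amotl2 from 1.41 ± 0.13 to 0.16 ± 0.12 and -0.22 ± 0.37, and Vgll3 to Vgll4 from 1.33 ± 0.13 to 0.48 ± 0.12 and 0.75 ± 0.22. A ratio of reads of 2 genes says nothing of their relative amounts, and only its shift between groups was read. Over 30 two-sided exact permutation tests (10 pairs, 3 comparisons), 15 reached the smallest exact p that 4 against 4 libraries allow, 0.0286. After Benjamini-Hochberg adjustment 0 passed, where the smallest adjusted p was 0.0571. An exact p cannot fall below that floor however large the shift, so the adjusted result tells nothing about any single pair among these 15. The shift of Yap1 to Wwtr1 between the KO-labelled and WT-labelled groups was among these 15, and so were its shift back with the Sox2 guide and the shift of Amotl1 to Amotl2 with the KO label.

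**Figure D5:**
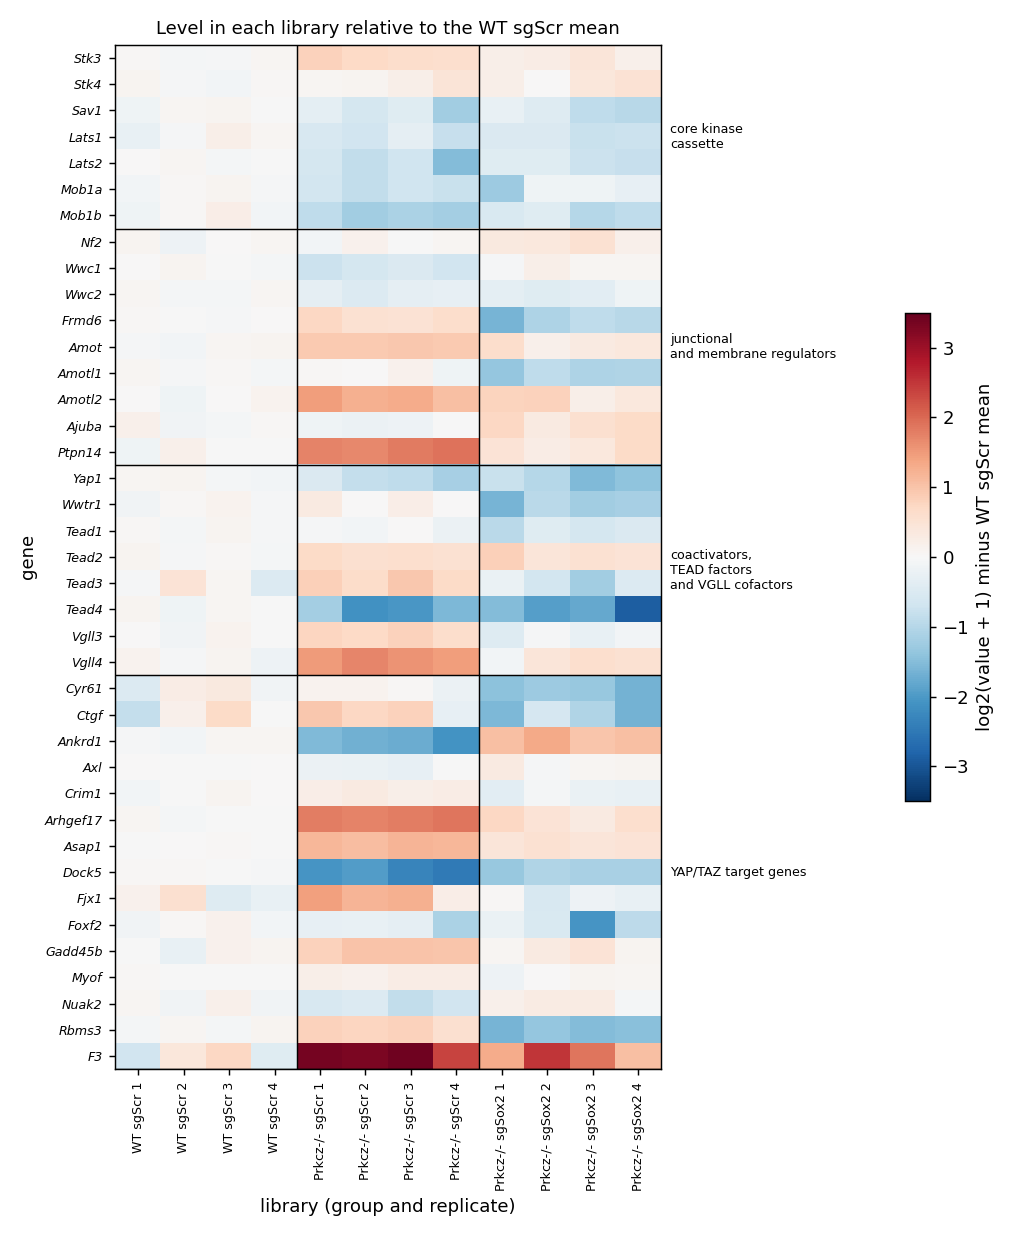
Level of each of the 39 tested genes (rows, by role) in each library (columns), as log2(value + 1) minus the mean of the WT-labelled libraries (colour scale). Single libraries that stand off from their group are Mob1a in sgSox2 replicate 1 (598 normalised reads) and Foxf2 in sgSox2 replicate 3 (26.2).

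Within groups the set had a smaller median spread than other genes, but the lists were not filtered alike. Genes of the set were kept below the minimum mean asked of the others, so the medians are a description. The median coefficient of variation was 6.51%, 8.29% and 13.3% in the WT-labelled, KO-labelled and sgSox2 libraries, beside 9.01%, 10.4% and 15.9% for all genes whose mean reached 50 normalised reads. Amot in the KO-labelled libraries was the steadiest (1.12%), and F3 in the sgSox2 libraries the most variable (46.3%). KO-labelled replicate 4 was the lowest of its group for 19 of 39 genes (48.7%), among them Lats2, Sav1, Yap1, Ctgf, Fjx1 and F3, beside 35.2% of all tested genes. Without that library, the KO-labelled against WT-labelled counts were 18 higher and 13 lower. Without sgSox2 replicate 1, the counts were 9 higher and 22 lower against the KO-labelled and 14 higher and 19 lower against the WT-labelled libraries.

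Other genes of the pathway were listed by role. Of 35 tested regulators, 12 were higher and 10 lower in the KO-labelled than in the WT-labelled libraries, and 7 higher and 14 lower with the Sox2 guide than in the KO-labelled. That is 62.9% and 60.0% called beside 67.0% and 60.7% of all tested genes, so the counts are no result about the regulators. The protocadherins Fat4 and Dchs1 bind each other across cell borders, and their relatives act upstream of Hippo signalling in the fly. Fat4 stood at 9.698 ± 1.94 (SD, n = 4) in the WT-labelled libraries, at 591 ± 57.7 in the KO-labelled and at 8.41 ± 3.52 in the sgSox2 ones (12, 872 and 13 reads). It passed the filter on low values through the KO-labelled group alone and so had to differ, and no test is given. The counts and shares above still include it. Dchs1 stood at 11.5 ± 2.21, 256 ± 43.7 and 15.8 ± 3.404 (log2 change 4.36, SE 0.26, limma adjusted p = 2.8e-10). Outside the KO-labelled group both thus rested on a few reads per library. Fat1, another protocadherin, was lower with the Sox2 guide than in the WT-labelled libraries, at 284 ± 66.8 against 953 ± 153 (log2 change -1.76, SE 0.21, limma adjusted p = 3e-06), and than in the KO-labelled ones (-2.04, adjusted p = 3.2e-07).

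Slmap and Sike1, parts of the phosphatase complex STRIPAK that switches off the MST kinases, were lower with the KO label (log2 changes -1.13 and -1.04, limma adjusted p = 2.2e-06 and 7.3e-06). Both were also lower with the Sox2 guide than in the WT-labelled libraries (-1.18, adjusted p = 2.9e-06 and -1.09, adjusted p = 9.2e-06). Strn, of the same complex, and Rassf1, a partner of the MST kinases, were lower with the KO label (-0.62, adjusted p = 0.00021 and -0.64, adjusted p = 1.6e-05) and higher with the Sox2 guide than in the KO-labelled libraries (0.60, adjusted p = 0.00032 and 0.44, adjusted p = 0.00081). Map4k2, of a kinase family that acts on LATS, had means of 70.7 ± 6.997, 273 ± 17.1 and 197 ± 34.2 (SD, n = 4). It was highest in the KO-labelled libraries (1.93, adjusted p = 9e-09), lower with the Sox2 guide (-0.48, adjusted p = 0.012) and still above the WT-labelled level (1.45, adjusted p = 7.1e-07). Taok3, of a kinase family that acts on MST, was instead highest with the Sox2 guide, at 836 ± 48.1, 1252 ± 60.9 and 1614 ± 186 (0.58, adjusted p = 2.5e-05 and 0.36, adjusted p = 0.0025).

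Of 15 tested further targets of YAP and TAZ, 9 were higher and 5 lower in the KO-labelled than in the WT-labelled libraries, and 5 higher and 8 lower with the Sox2 guide than in the KO-labelled, which is 93.3% and 86.7% called beside 67.0% and 60.7% of all tested genes. Tgfb2, a ligand of the TGF-beta family, rose from 103 ± 7.85 (SD, n = 4) to 1629.7 ± 135 with the KO label (log2 change 3.97, SE 0.13, limma adjusted p = 2.9e-13) and stood at 268 ± 52.4 with the Sox2 guide. Ccn4 (Wisp1 in the annotation), of the family of Cyr61 and Ctgf, rose from 1897 ± 37.1 to 5642 ± 219 and stood at 4161 ± 573 (log2 change 1.57, SE 0.09, limma adjusted p = 9.6e-11). It thus differed from Cyr61 and Ctgf, which were lowest with the Sox2 guide. Dlc1 was lower in both Prkcz-/- groups (-1.35 and -1.12), and Thbs1, a matricellular protein, was higher with the KO label (0.69, adjusted p = 1.3e-05) and lower with the Sox2 guide than in either other group (-1.33 and -0.63). Areg, a ligand of the EGF receptor, had 91, 7 and 6 reads over the groups. It passed the filter through the WT-labelled group alone, and no test is given, though the counts and shares above still include it. Lmnb2, a nuclear lamin, was lower with the KO label (-0.50) and higher with the Sox2 guide than in the KO-labelled libraries (0.53). Birc5, the gene of survivin, which also acts in mitosis, fell with the KO label (-1.22) and rose with the Sox2 guide (1.64), as did all 10 genes of the mitosis list.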

How the data were processed

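The authors deposited signal values normalised for depth, 1 per gene and library, and each column sums to 10000000. Per the submitters' processing notes the build was GRCm38, and libraries were made with a forward QuantSeq 3' kit and sequenced from 1 end, per the labels' protocols. The aligner, counter, annotation, use of molecular identifiers and use of strand are not stated in the sources. Whole reads were recovered from the steps of the values for 100% of values (tolerance 0.01 read), giving 2.67 to 5.20 M reads per library.

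Testing was limited to genes averaging 10 or more normalised reads across libraries (12676, with 39 of the 40 chosen). The scale was log2(value + 1), so log2 changes understate the change of low genes, and the folds printed are ratios of group means. The 3 groups entered 1 limma 3.58.1 model (trend, R 4.3.3), and the 3 differences were called at a Benjamini-Hochberg adjusted p under 0.05 over all tested genes. The model was run on simulated data, in which few genes changed and all libraries had the same spread. That run thus does not cover changes as wide as those here or a library that stands apart. A group pair does not overlap where every library of 1 lies above every library of the other. Paralog ratios were compared by exact permutation tests over 70 assignments of 8 libraries. Gene coordinates and names came from GENCODE M21, and promoter sequences from RefSeq. Alternatives were other pseudocounts, filters and scalings, edgeR 4.0.16 and DESeq2 1.42.0 on the recovered reads, a replicate block, 2 groups only and leaving out each library.

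The genes and the lists of other pathway genes and markers were chosen with earlier results of these data known. Of each list of other pathway genes, up to 2 called genes with the smallest adjusted p in each direction of each comparison are named. The 30-base windows were chosen after the matches were seen. Libraries of 1 group were compared by a chi-square test of reads per gene, and all pairs exceeded sampling noise. Pairs with sgSox2 replicate 1 exceeded it most, at 29.5 to 33.3 chi-square per degree of freedom. The other sgSox2 pairs gave 2.51 to 5.65, and pairs within the other groups 1.30 to 5.05. All 12 libraries were kept.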

Additional observations from a re-analysis of the deposited data

Results flagged for a closer look

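Over 117 groups of 4 libraries (39 genes, 3 groups), 6 held a library that stood apart from the other 3 by Dixon's test at the 95% level, and chance flags about 1 in 20 groups, so the number is near what chance gives. KO-labelled replicate 4 accounted for 3 of them. It read 51.8 normalised reads for Foxf2 where the others read 90.8 to 93.3, 1136 for Rbms3 where they read 1306 to 1339.6, and 301 for F3 where they read 580.3 to 617. KO-labelled replicate 2 was low for Wwc2 (2519 against 2804 to 2841), and KO-labelled replicate 1 was low for Gadd45b (870.0 against 974 to 991). WT-labelled replicate 1 was high for Myof (4646 against 4403 to 4438). Each of these genes kept its direction in every comparison in which it was called when the library was left out.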

How the results depend on the processing

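The counts of called genes in each comparison stayed within 1.5 times the reported ones under every alternative. Over 2103 values of the 39 genes under the alternatives, 1976 kept direction and side of the threshold, 45 lost their call, 28 gained one and 54 turned sign, the last all for genes with no call. Of the called genes, 27 of 29 kept their call under all alternatives between the KO-labelled and WT-labelled libraries, 26 of 29 between the sgSox2 and KO-labelled, and 23 of 31 between the sgSox2 and WT-labelled. The last comparison lost Amot, Crim1, Foxf2, Mob1a, Nf2, Stk3, Tead3 and Vgll4 under at least 1 alternative, and Mob1a moved to -0.20 there without sgSox2 replicate 1. The cause was not tested. In the KO-labelled against WT-labelled comparison the log2 changes that turned sign were Nf2 -0.011 (quantile), -0.086 (TMM), -0.025 (edgeR), -0.069 (DESeq2), -0.038 to 0.065 (1 library left out), Amotl1 -0.093 (TMM), -0.024 (edgeR), -0.067 (DESeq2), -0.028 to 0.071 (1 library left out), Tead1 0.024 (quantile) and Cyr61 -0.047 (quantile), -0.092 (TMM), -0.054 (edgeR), -0.10 (DESeq2), -0.14 to 0.13 (1 library left out). With the Sox2 guide against the KO-labelled the log2 changes that turned sign were Stk4 -8.9e-05 to 0.16 (1 library left out), Sav1 -0.0052 (quantile), -0.051 (edgeR), -0.027 (DESeq2), -0.19 to 0.12 (1 library left out), Lats1 -0.11 to 0.058 (1 library left out), Wwc2 -0.10 (quantile), -0.019 (edgeR), -0.033 to 0.059 (1 library left out), Tead2 0.0035 (TMM), -0.10 to 0.032 (1 library left out) and Tead4 0.25 (quantile). With the Sox2 guide against the WT-labelled the log2 changes that turned sign were Wwc1 -0.0026 (quantile), -0.018 (TMM), -0.015 (edgeR), -0.035 (DESeq2), Axl -0.00077 (DESeq2) and Myof -0.030 (quantile), -0.092 (TMM), -0.082 (edgeR), -0.10 (DESeq2), -0.033 to 0.063 (1 library left out). The median change of all genes with the KO label was 0.12, but 0.01 under TMM and -0.05 under quantile scaling, so small rises there are uncertain. On the recovered reads edgeR called 8021, 7457 and 6372 genes in the 3 comparisons. Leaving out 1 library gave 17 to 18 genes of the set higher and 12 to 13 lower between the KO-labelled and WT-labelled, 7 to 9 and 20 to 22 between the sgSox2 and KO-labelled, and 10 to 14 and 15 to 20 between the sgSox2 and WT-labelled libraries. Same-numbered libraries deviated together weakly at most (correlations of -0.04 to 0.13), which cannot show whether the numbers pair them. The highest, 0.13 for replicate 4 of the sgSox2 and KO-labelled groups, lay above its values with other numbers (at most -0.0096). With a replicate block 17 genes of the set were higher and 12 lower between the KO-labelled and WT-labelled, 8 and 22 between the sgSox2 and KO-labelled, and 13 and 19 between the sgSox2 and WT-labelled libraries, and Yap1 (sgSox2 against KO-labelled, adjusted p = 0.017) and Stk4 (sgSox2 against WT-labelled, adjusted p = 0.031) gained a call. Depth limits Nt5e, Tead4 and F3 most, whose smallest groups hold 2, 33 and 77 reads.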
